A study of Rattus norvegicus with 7 samples.

Results

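The G1 cyclins, the kinases they switch on and 2 inhibitors of those kinases were examined in rat mesenchymal stem cells (rMSCs) 4 h after the cells were placed on different substrates. The members were taken by gene symbol: 3 D-type cyclins (Ccnd1, Ccnd2 and Ccnd3), 2 E-type cyclins (Ccne1 and Ccne2), 3 kinases (Cdk2, Cdk4 and Cdk6) and 2 inhibitors (Cdkn1b and Cdkn2c). All 10 were found among the 17147 symbols of every library, none was listed at 0 in any library, and all 10 were among the 9467 genes tested. Inhibitors that are p53 targets, such as Cdkn1a, are not members and are described with the other regulators of G1. The study asked how a film of ISB-P, a polyurethane copolymer of polycaprolactone diol, hexamethylene diisocyanate and propoxylated isosorbide, affects cells in comparison with a film of plain polycaprolactone (PCL) and with tissue culture plastic (TCP). RNA was taken 4 h after seeding, and polyadenylated RNA was made into strand-specific libraries, of which 3 from PCL, 3 from ISB-P and 1 from TCP were analysed. The methods imply replicate TCP libraries as well, and none beyond this 1 was analysed here.

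In all groups the cells were primary cells grown out of the hind limb marrow of a male Sprague–Dawley rat aged 6 weeks, with no transgene or drug named in the labels, in alpha MEM with fetal bovine serum and antibiotics. The PCL and ISB-P films were 16 mm in diameter and sterilized with ethylene oxide gas, and 20000 cells were seeded. The methods name a single donor animal and the labels do not say whether the replicates were separate cultures, so the p-values measure the spread between these libraries only, which may be technical. Every value is given in FPKM, fragments scaled for transcript length and library total, so that levels of different genes can be set side by side. The deposited values summed to 539393 FPKM in the TCP library, to between 542921 and 597954 in the PCL libraries and to between 590628 and 660124 in the ISB-P libraries. These sums are not read depths, how many reads each library holds is unknown, and counting errors are therefore not given.

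The labelled cell type was checked against its markers. Of 12 mesenchymal markers 11 passed the filter on low values, led by the collagen gene Col1a1 (10406 FPKM on TCP and 3868 to 6058 on the films), and Thy1, a surface marker of these cells, lay between 925 and 1210 FPKM in the 7 libraries. Col1a2 was listed at 0 in all 7 libraries although Col1a1 was abundant in each, so a listed 0 in these files may be a failed estimate and is not read as absence of the RNA. All 8 endothelial markers were under 1 FPKM in every library, and Emcn and Cldn5 were listed at 0 in all of them. The 12 haematopoietic markers summed to 150.8 FPKM on TCP, with 52.3 ± 4.68 for PCL and 52.0 ± 3.19 for ISB-P (SD, n = 3), with Lyz2 the most abundant. Cd34 was listed at 0 throughout, with the same limit as for Col1a2, which also holds for Emcn and Cldn5.

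Cells pass from G1 into S phase when D-type cyclins, which are made in answer to growth factors and attachment, switch on Cdk4 and Cdk6, and these kinases phosphorylate the retinoblastoma protein. E2F factors are then released and switch on the E-type cyclins, which work with Cdk2, and the genes of DNA synthesis. Cdkn1b (p27) binds cyclin complexes and holds back Cdk2, whereas Cdkn2c (p18, of the INK4 family) binds Cdk4 and Cdk6. Adherent cells such as fibroblasts need attachment to a substrate to pass through G1.

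The promoters of Ccne1, Cdkn1b and Cdkn2c are shown because these members were lower in every ISB-P library than in any PCL library, and that of Cdk4, the most abundant kinase, is shown beside them as a member whose films overlapped. Each runs 5′ to 3′ from 250 bases before to 50 bases after the start of the gene. Gene starts were taken from the RefSeq annotation of the GRCr8 assembly, and the promoter set used here held 6 of the 10 members. Ccne1 lies at chr1:99927860-99928159 on the minus strand, Cdkn1b at chr4:169491254-169491553 on the plus strand, Cdkn2c at chr5:129644842-129645141 on the minus strand and Cdk4 at chr7:64771203-64771502 on the plus strand. Capitals mark the matches to the motifs searched.
Ccne1: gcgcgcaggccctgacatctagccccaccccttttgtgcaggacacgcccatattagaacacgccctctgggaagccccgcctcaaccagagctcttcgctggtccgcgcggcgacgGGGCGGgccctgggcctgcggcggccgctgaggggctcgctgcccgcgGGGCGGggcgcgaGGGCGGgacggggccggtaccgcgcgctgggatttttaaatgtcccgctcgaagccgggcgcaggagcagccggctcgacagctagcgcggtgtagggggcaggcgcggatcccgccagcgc
Cdkn1b: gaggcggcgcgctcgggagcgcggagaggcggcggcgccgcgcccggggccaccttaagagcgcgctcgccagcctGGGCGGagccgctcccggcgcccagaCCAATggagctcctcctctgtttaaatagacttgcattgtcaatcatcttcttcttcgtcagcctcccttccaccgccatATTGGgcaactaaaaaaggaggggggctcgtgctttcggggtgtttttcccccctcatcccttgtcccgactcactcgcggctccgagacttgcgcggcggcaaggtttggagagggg
Cdkn2c: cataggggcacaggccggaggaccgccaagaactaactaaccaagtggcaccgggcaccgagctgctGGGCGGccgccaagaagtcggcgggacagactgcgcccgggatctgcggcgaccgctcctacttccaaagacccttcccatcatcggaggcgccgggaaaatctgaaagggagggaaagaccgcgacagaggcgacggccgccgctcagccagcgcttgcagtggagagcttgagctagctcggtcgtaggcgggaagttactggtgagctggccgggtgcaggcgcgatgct
Cdk4: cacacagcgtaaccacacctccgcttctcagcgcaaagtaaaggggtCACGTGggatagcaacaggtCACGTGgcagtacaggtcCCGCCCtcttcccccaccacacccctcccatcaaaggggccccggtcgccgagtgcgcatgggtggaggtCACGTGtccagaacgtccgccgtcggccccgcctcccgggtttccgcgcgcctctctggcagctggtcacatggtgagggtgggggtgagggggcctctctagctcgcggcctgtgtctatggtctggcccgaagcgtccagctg

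Each motif was searched on both strands, and 2 shares are given for each: that of all 27457 promoters of the table that held it and that of the 7207 promoters of tested genes. A match on the other strand appears above as its reverse complement. GGGCGG, the GC box (34.9% and 65.2%), matched 3 times in Ccne1 and 1 time each in Cdkn1b, Cdkn2c and Cdk4. CCAAT (37.7% and 37.9%) matched 2 times in Cdkn1b, on opposite strands, starting 148 and 68 bases before the gene start. CACGTG, an E-box of the form that Myc binds (6.65% and 9.73%), matched 3 times in Cdk4, starting 203, 183 and 95 bases before the gene start. The cyclic AMP response half-site TGACGT (8.22% and 12.7%) and the heat shock element GAANNTTC (8.34% and 5.79%) had no match in these 4 promoters. The promoters of the other members held, Ccnd3 and Cdk2, had 1 CCAAT and 1 TGACGT each with 3 and 4 GC boxes, and Ccnd3 also matched the heat shock element. None of the 6 promoters held TTTCCCGC or TTTGGCGC or TTTCGCGC or TTTGCCGC, the forms of the E2F site searched (2.25% and 4.33%), nor TGACTCA of AP-1 (4.53% and 3.29%), nor TTTGAA, the CHR element of mitotic genes (18.1% and 11.0%). The motifs share no letters in these windows. A match describes the letters of the window only.

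ISB-P and PCL were compared with limma on log2(FPKM + 1) over all 9467 tested genes, with Benjamini-Hochberg adjustment and a call at an adjusted p under 0.05. None of the 10 members was called, against 1.72% of all tested genes (163, of which 104 were higher and 59 lower on ISB-P, or 70 and 70 after scaling to a common total). At an unadjusted p under 0.05, 2 members, Ccnd1 and Cdkn1b, were lower on ISB-P and 0 were higher, against 12.1% of all tested genes in either direction. The replicate numbers of the sample titles were read as pairs, although the column headers number the PCL libraries differently and no label says what a number marks. With the title number as a block 6 of 10 members were called, against 24.4% of tested genes: 5 were lower on ISB-P (Ccnd1, Ccnd3, Ccne1, Cdkn1b and Cdkn2c), against 11.4% of tested genes, and 1 was higher (Ccne2), against 13.0%. Once a common total was added, the blocked fit called 7 members. Of all tested genes it then called 714 higher and 2113 lower on ISB-P. The ISB-P libraries all lay below the PCL libraries for 4 members (Ccnd1, Ccne1, Cdkn1b and Cdkn2c), against 9.54% of tested genes, and all above them for 0 members, against 8.17%. The median log2 difference of the members was -0.17, beside 0.02 over all tested genes. Scaling to a common total moved the median of all genes from 0.02 to -0.09. Because the cultures were measured in bulk, fewer cells of a type and less RNA per cell cannot be told apart.

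**Figure D1:**
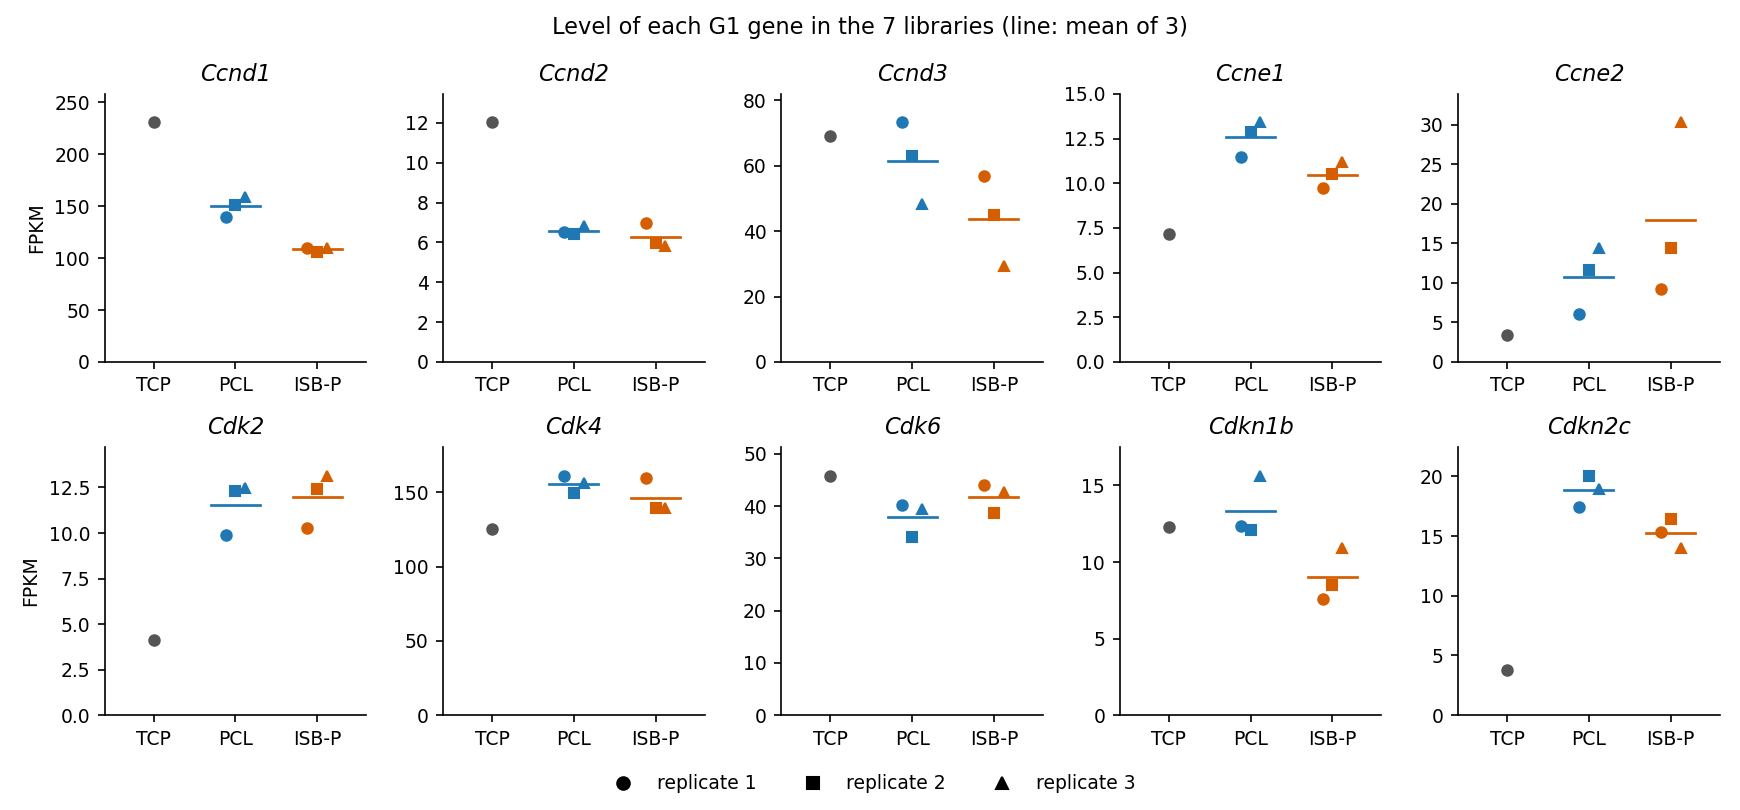
Level in FPKM (vertical axes, each from 0) of the 10 G1 genes in the TCP, PCL and ISB-P libraries, with marker shapes for replicate numbers and a line at the mean of 3. Ccnd1 stood at 231 on TCP, above all 6 film libraries, whereas Cdkn2c stood at 3.82 on TCP, below all of them.

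Among the D-type cyclins, Ccnd1, the partner of Cdk4 and Cdk6 that growth factors and adhesion induce in most mesenchymal cells, was the most abundant. Its level was 231 FPKM on TCP, 139, 151 and 159 in the PCL libraries 1, 2 and 3, and 110, 106 and 110 in those from ISB-P. The 3 groups did not overlap, TCP being highest and ISB-P lowest. Ccnd1 averaged 149.8 ± 9.98 on PCL and 108.5 ± 2.23 on ISB-P (SD, n = 3), a ratio of 0.724 and a log2 difference of -0.46 with an SE of 0.115 (limma adjusted p = 0.138). With the replicate block Ccnd1 fell by 0.46 on the log2 scale with an SE of 0.0698 (limma adjusted p = 0.0024), and the ratio within replicates 1, 2 and 3 was 0.787, 0.701 and 0.691.

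Ccnd3, the D-type cyclin best known from lymphoid cells and from muscle differentiation, was at 69.2 FPKM on TCP, 73.3, 62.9 and 48.2 in the PCL libraries and 56.9, 45.0 and 29.4 in those from ISB-P. The films overlapped, since replicate 1 on ISB-P lay above replicate 3 on PCL, but every ISB-P library was below the PCL library of its own number, with ratios of 0.776, 0.716 and 0.609. The log2 difference of -0.51 had an SE of 0.270 without the block (limma adjusted p = 0.566) and 0.0826 with it (limma adjusted p = 0.00329), so that Ccnd3 was called lower on ISB-P in the blocked fit only. The difference was -0.26 without ISB-P replicate 3 and -0.72 without ISB-P replicate 1, and -0.58 to -0.42 in the blocked fits without 1 number. Ccnd2, the D-type cyclin of many hormone-responsive tissues, was the least abundant, at 12.0 FPKM on TCP, 6.50, 6.40 and 6.82 in the PCL libraries and 6.96, 5.96 and 5.82 in those from ISB-P. Its films overlapped, with a log2 difference of -0.07 and a 95% interval from -0.34 to 0.21 (limma adjusted p = 0.931, and 0.622 with the block).

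The 3 D-type cyclins together summed to 312 FPKM on TCP, 219, 220 and 214 in the PCL libraries and 174, 157 and 145 in those from ISB-P. Every ISB-P library lay below every PCL library and every film library below TCP. A sum of this kind is set mostly by Ccnd1, which made up 74.0% of it on TCP, with 68.8 ± 5.36% for PCL and 68.8 ± 6.37% for ISB-P (SD, n = 3; two-sided exact permutation p = 1). Ccnd3 made up 22.2%, 28.2 ± 5.48% and 27.2 ± 6.39% of it (exact permutation p = 0.8). The share of Ccnd2 was 3.85% on TCP, 2.97, 2.90 and 3.18% in the PCL libraries and 4.01, 3.80 and 4.01% in those from ISB-P, so that all ISB-P libraries lay above all PCL libraries, by 0.92 percentage points of the sum (exact permutation p = 0.1, and 0.25 adjusted over the 5 ratios tested). With 3 libraries against 3, 0.1 is the smallest p this test can give, so no ratio could pass 0.05.

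**Figure D2:**
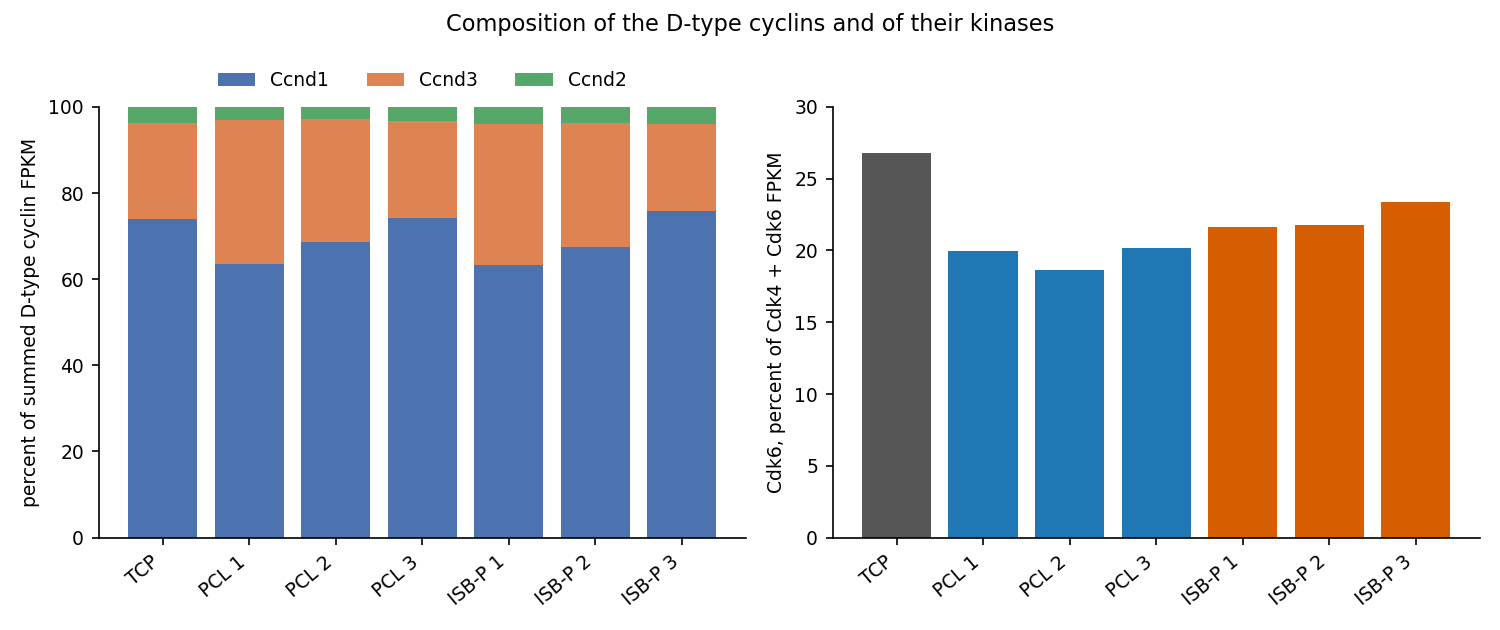
Left, each D-type cyclin as a percent of the summed D-type cyclin FPKM in each of the 7 libraries (stacked bars). Right, Cdk6 as a percent of Cdk4 plus Cdk6 FPKM (bars from 0), which was 26.8 on TCP, 18.6 to 20.2 on PCL and 21.6 to 23.4 on ISB-P.

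The E-type cyclins, which activate Cdk2 at the end of G1, differed from each other in direction. Ccne1 was at 7.16 FPKM on TCP, 11.4, 12.9 and 13.4 in the PCL libraries and 9.71, 10.5 and 11.2 in those from ISB-P. The groups did not overlap, PCL being highest and TCP lowest. The log2 difference of Ccne1 between the films was -0.24 with an SE of 0.124 (limma adjusted p = 0.542). It was called lower with the block, close to the threshold (SE 0.0773, limma adjusted p = 0.0495), and without the libraries of number 1 or of number 2 it was not (limma adjusted p = 0.178 and 0.224). The second E-type cyclin, Ccne2, was at 3.40 FPKM on TCP, 6.11, 11.6 and 14.4 in the PCL libraries and 9.26, 14.5 and 30.3 in those from ISB-P. Its level in replicates 2 and 3 was above that in replicate 1 on both films, the films overlapped, and replicate 3 on ISB-P stood highest. Each ISB-P library exceeded the PCL library of its number, by ratios of 1.52, 1.25 and 2.11. The log2 difference of Ccne2 was 0.62 with an SE of 0.453 (limma adjusted p = 0.755), and with the block it rose by the same amount with an SE of 0.128 (limma adjusted p = 0.00987). Its size depended on single libraries: it was 0.18 without ISB-P replicate 3, 0.29 without PCL replicate 1 and 0.98 without ISB-P replicate 1, and 0.41 to 0.78 in the blocked fits without 1 number.

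None of the 3 kinases was called between the films by limma with or without the block, and none had an unadjusted p under 0.05 without it. Cdk4, the main D-type cyclin partner by level, was at 125 FPKM on TCP, 161, 149 and 156 in the PCL libraries and 160, 139 and 139 in those from ISB-P. The films overlapped and TCP lay below all of them. The log2 difference of Cdk4 between the films was -0.09, with a 95% interval from -0.38 to 0.19 without the block and from -0.24 to 0.06 with it (limma adjusted p = 0.908 and 0.338). Only scaling to a common total together with the block gave a call (log2 difference -0.21, limma adjusted p = 0.0440). Cdk6, which D-type cyclins also activate, was at 45.9 FPKM on TCP, 40.3, 34.2 and 39.4 in the PCL libraries and 44.0, 38.7 and 42.6 in those from ISB-P. The films overlapped and TCP lay above all of them, with a log2 difference between the films of 0.14 and a 95% interval from -0.17 to 0.44 (limma adjusted p = 0.856, and 0.186 with the block). It was 0.0223 with a common total, 0.0594 with quantile normalization and 0.0640 without PCL replicate 2. Cdk6 made up 26.8% of Cdk4 plus Cdk6 on TCP, with 19.6 ± 0.842% for PCL and 22.3 ± 1.00% for ISB-P (SD, n = 3). All ISB-P libraries were above all PCL libraries in this share (difference 2.66 percentage points, two-sided exact permutation p = 0.1, adjusted p = 0.25).

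Cdk2, the kinase of E-type cyclins, was at 4.11 FPKM on TCP, 9.89, 12.3 and 12.5 in the PCL libraries and 10.3, 12.4 and 13.2 in those from ISB-P. The films overlapped and TCP lay far below both. The log2 difference of Cdk2 between the films was 0.05, with a 95% interval from -0.31 to 0.40, or -0.13 to 0.22 with the block (limma adjusted p = 0.963 and 0.698), and scaling to a common total turned its sign (-0.06).

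Both inhibitors were lower in all ISB-P libraries than in all PCL libraries. Cdkn1b was at 12.3 FPKM on TCP, 12.4, 12.1 and 15.7 in the PCL libraries and 7.62, 8.50 and 10.9 in those from ISB-P. TCP lay within the range of PCL and above ISB-P. The log2 difference of Cdkn1b between the films was -0.53 with an SE of 0.172 (limma adjusted p = 0.256), and with the block it fell by 0.53 with an SE of 0.0814 (limma adjusted p = 0.00263), at ratios of 0.617, 0.703 and 0.697 within the numbers. Cdkn2c was at 3.82 FPKM on TCP, 17.4, 20.1 and 19.0 in the PCL libraries and 15.3, 16.4 and 14.0 in those from ISB-P. Its 3 groups did not overlap, PCL being highest and TCP lowest by a wide margin. Between the films its log2 difference was -0.29 with an SE of 0.126 (limma adjusted p = 0.448), called with the block (SE 0.0811, limma adjusted p = 0.0336) but not without the libraries of number 1 or of number 2 (limma adjusted p = 0.0614 and 0.0988). Cdkn1b per unit of summed D-type cyclin was 0.0394 on TCP, with 0.0614 ± 0.0101 for PCL and 0.0577 ± 0.0159 for ISB-P (SD, n = 3; two-sided exact permutation p = 0.7), a difference smaller than the spread between replicates.

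**Figure D3:**
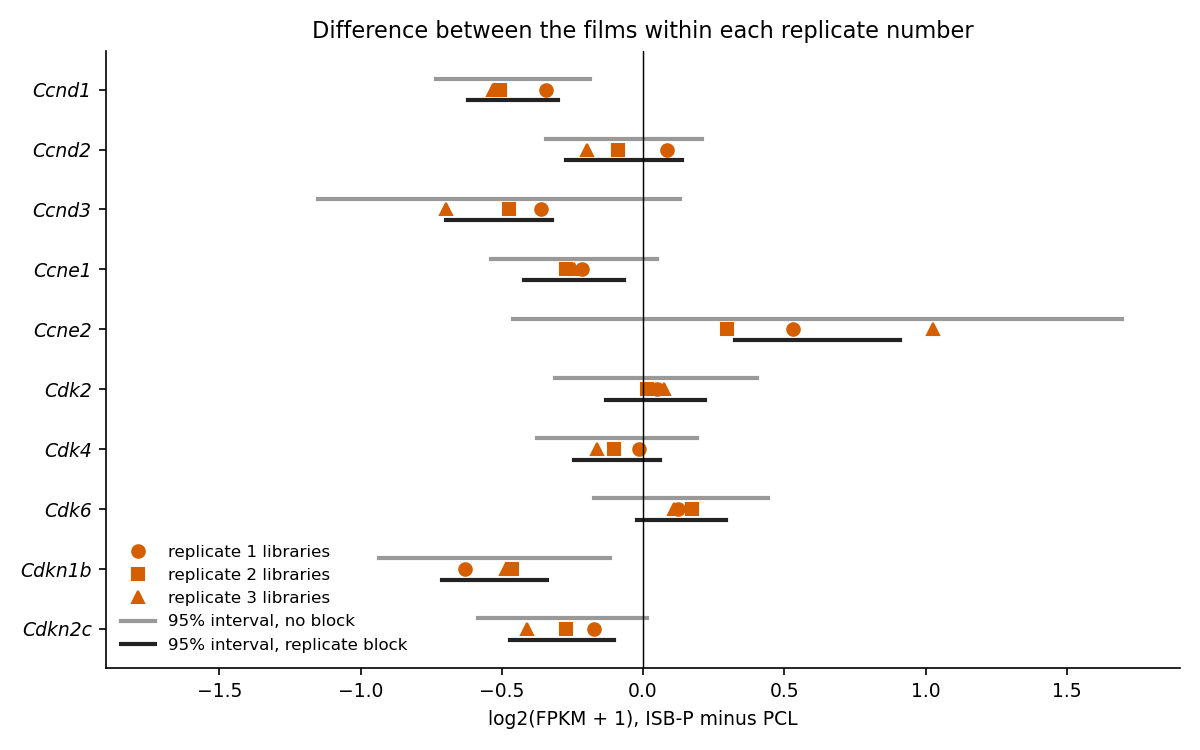
Difference in log2(FPKM + 1) between ISB-P and PCL (horizontal axis, right is higher on ISB-P) for the 10 G1 genes, as the 3 differences within replicate numbers (symbols) and the 95% intervals of the fit without (grey) and with (black) the replicate block. The 3 symbols of Ccnd1, Ccnd3, Ccne1, Cdk4, Cdkn1b and Cdkn2c lie left of 0, those of Ccne2, Cdk2 and Cdk6 lie right of 0, and those of Ccnd2 lie on both sides.

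The order of the members by level changed between substrates. On TCP the order was Ccnd1, Cdk4, Ccnd3, Cdk6, Cdkn1b, Ccnd2, Ccne1, Cdk2, Cdkn2c and Ccne2. On PCL it was Cdk4, Ccnd1, Ccnd3, Cdk6, Cdkn2c, Cdkn1b, Ccne1, Cdk2, Ccne2 and Ccnd2, and on ISB-P it was Cdk4, Ccnd1, Ccnd3, Cdk6, Ccne2, Cdkn2c, Cdk2, Ccne1, Cdkn1b and Ccnd2. Cdk4 and Ccnd1 overlapped on PCL and did not on ISB-P, where Cdk4 was above Ccnd1 in every library. Ccnd3 and Cdk6 overlapped on ISB-P and did not on PCL. Below them, each neighbour from Cdkn1b down to Ccnd2 overlapped the next on PCL, whereas on ISB-P Ccne2 overlapped Cdkn2c, Cdk2 overlapped Ccne1 and Ccne1 overlapped Cdkn1b. Cdkn2c lay above Cdk2, and Cdkn1b above Ccnd2, in every ISB-P library.

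TCP was compared with each film without a test, since it had 1 library. Against PCL, 3 members (Ccne2, Cdk2 and Cdkn2c) were over 2-fold lower on TCP, against 5.56% of tested genes, and 0 were over 2-fold higher, against 3.04%. Against ISB-P the same 3 were over 2-fold lower, against 8.98%, and 1 (Ccnd1) was over 2-fold higher, against 4.28%. The TCP library lay below all 6 film libraries for 5 members (Ccne1, Ccne2, Cdk2, Cdk4 and Cdkn2c), against 29.7% of tested genes, and above all 6 for 3 (Ccnd1, Ccnd2 and Cdk6), against 25.4%. On the log2(FPKM + 1) scale the TCP level minus the PCL mean was -2.04 for Cdkn2c, -1.41 for Ccne2, -1.30 for Cdk2 and -0.74 for Ccne1, and minus the ISB-P mean it was -1.75, -2.11, -1.34 and -0.49. The same differences were 0.62 and 1.08 for Ccnd1, 0.78 and 0.85 for Ccnd2, 0.17 and 0.65 for Ccnd3, -0.31 and -0.22 for Cdk4, 0.27 and 0.13 for Cdk6, and -0.11 and 0.41 for Cdkn1b. Both sets of differences share the 1 TCP library. Of the 7 alternatives run for them, 4 moved the size of the Ccnd2 difference to PCL. The differences of Ccnd1 to ISB-P, Cdk4 to PCL and Cdk6 to ISB-P were each moved by 3. Those of Ccnd3, Ccne2 and Cdkn1b were moved by none, to either film. A difference counted as moved if it changed by at least the SD of that gene between the film's replicates (log2 scale). Genes with a wide spread therefore move less easily. The highest replicate over the lowest was 2.35 on PCL and 3.27 on ISB-P for Ccne2, and 1.07 on PCL for Ccnd2. Not being moved is thus no measure of precision. Of the D-type cyclins Ccnd1 and Ccnd2 were at their highest on TCP and Ccnd3 lay within the PCL range, whereas Cdk2, both E-type cyclins and Cdkn2c were at their lowest there.

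**Figure D4:**
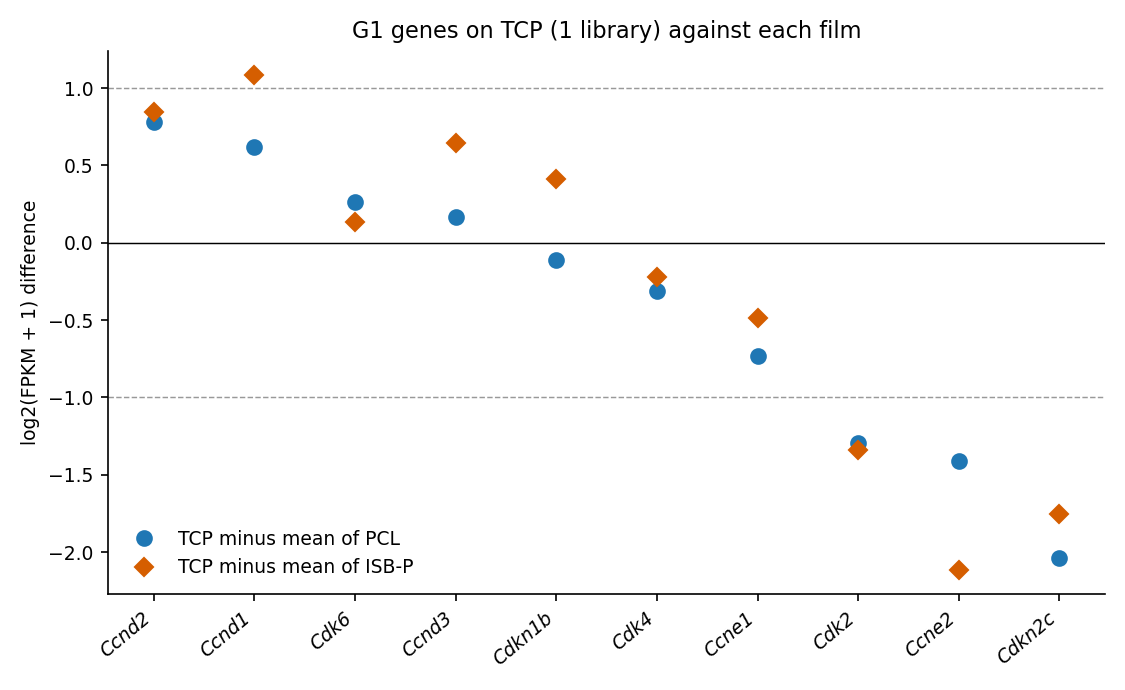
TCP library minus the mean of PCL (circles) and of ISB-P (diamonds) in log2(FPKM + 1) for the 10 G1 genes, ordered by the first, with dashed lines at a 2-fold change. Cdkn2c, Ccne2 and Cdk2 lie below the lower line for both films, and Ccnd1 lies above the upper line for ISB-P.

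The other genes of the pathway were taken from a list of 40 regulators of G1, of which 31 were in the files and 30 were tested. Without the block 0 of 30 were called by limma, beside 1.72% of all tested genes, and 4 had an unadjusted p under 0.05, beside 12.1%. Both shares of all tested genes hold for every list below in the fit without the block. In the blocked fit the share of all tested genes was 24.4%, and 18.7%, 21.2% and 33.1% without the libraries of number 1, 2 or 3. It was 29.9% with the block and a common total, 24.4% with quantile normalization and 24.5% with upper quartile scaling. Blocked counts of every list below stand beside these shares. With the block 8 of the 30 were higher and 3 lower on ISB-P, 36.7% of the list beside 24.4% of all tested genes. The median log2 difference of the 30 was 0.09. Without the libraries of number 1 the blocked fit called 4 of the 30, 13.3% beside 18.7% of all tested genes, and with a common total it called 6, 20.0% beside 29.9%, so the share of the list was above that of all genes in some blocked fits and below it in others. With all 3 numbers the lower ones were Fbxo31, an F-box protein for which D-type cyclin is a known target, Rbl2, the pocket protein p130 of resting cells, and Cdc25a, the phosphatase that activates Cdk2. Fbxo31 was at 15.5 FPKM on TCP, 14.0, 14.1 and 13.9 in the PCL libraries and 9.41, 7.21 and 4.81 in those from ISB-P. The films did not overlap, with a log2 difference of -0.92 and an SE of 0.214 (limma adjusted p = 0.114, and 0.00246 with the block). The blocked log2 differences were -0.42 for Rbl2 (limma adjusted p = 0.0171) and -0.31 for Cdc25a (0.0289).

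Of 3 tested inhibitors outside the members 0 were called by limma, 1 had an unadjusted p under 0.05 and the same 1 was called with the block, beside 24.4% of all tested genes (2 of 3 without the libraries of number 3). This was Cdkn2b (p15), of the same INK4 family as Cdkn2c, which was at 65.5 FPKM on TCP, 33.3, 41.7 and 40.7 in the PCL libraries and 48.3, 58.1 and 56.8 in those from ISB-P. The films did not overlap, with a log2 difference of 0.49 and an SE of 0.148 (limma adjusted p = 0.212), and Cdkn2b was called higher on ISB-P with the block (0.00168). Cdkn1a (p21), the p53 target, was at 298 FPKM on TCP, 206, 239 and 207 in the PCL libraries and 259, 252 and 203 in those from ISB-P, with overlapping films and a log2 difference of 0.12 (limma adjusted p = 0.896, and 0.279 with the block). Cdkn2a, the INK4A and ARF gene, was at 114 FPKM on TCP, 65.0, 53.4 and 47.1 in the PCL libraries and 64.0, 53.6 and 37.8 in those from ISB-P (log2 difference -0.11, limma adjusted p = 0.937). The TCP library lay above all 6 film libraries for Cdkn1a, Cdkn2a and Cdkn2b, whereas it lay below all 6 for the member Cdkn2c.

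The pocket proteins and E2F factors, on which the kinases act, were 9 tested genes. None was called by limma or had an unadjusted p under 0.05, and with the block 1 was higher and 1 lower, 22.2% of the list and so near the 24.4% of all tested genes. The blocked count was 1 without the libraries of number 2 and 3 with quantile normalization. Rbl1 (p107) had a log2 difference of 0.36 (limma adjusted p = 0.0239 with the block), Rb1 one of 0.21 (0.206) and E2f4 one of -0.20 (0.101). Rb1 was at 3.31 FPKM on TCP, 3.96, 6.50 and 8.09 in the PCL libraries and 4.24, 6.58 and 12.1 in those from ISB-P, and like Ccne2 it was highest in replicate 3 on both films. Of the 6 genes of cyclin and Cdkn1b degradation 0 were called by limma without the block (1 had an unadjusted p under 0.05) and 3 were higher with the block, among them Cul1 (log2 difference 0.32, limma adjusted p = 0.0325), the scaffold of the SCF ligase, and 1, Fbxo31, was lower. These 4 of 6 stood beside 24.4% of all tested genes, and the count was 1 without the libraries of number 1 and 2 with a common total. Skp2, the F-box protein that marks Cdkn1b for degradation, had a log2 difference of -0.24 (limma adjusted p = 0.0528 with the block). Of 3 tested genes that activate the kinases, which are Cdc25a and subunits of the CDK-activating kinase, 0 were called without the block and Cdc25a alone had an unadjusted p under 0.05. The subunit Mnat1 was higher with the block (0.32, limma adjusted p = 0.0160) and the subunit Ccnh was not called (0.15, 0.214). The blocked count of these 3 genes, 2 beside 24.4% of all tested genes, was 0 without the libraries of number 1, 3 without those of number 3 and 1 with a common total. Lin37, a subunit of the DREAM complex, had a log2 difference of 0.38 between films that did not overlap (limma adjusted p = 0.327, and 0.0170 with the block).

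Genes upstream of the cyclins were read from 18 mitogen-induced early genes. Between the films 2 of 18 were called by limma without the block, 11.1% of the list beside 1.72% of all tested genes. They were Egr2, higher on ISB-P (log2 difference 0.69, limma adjusted p = 0.0445), and Etv5, lower (-0.73, 0.0341). Egr2 lay near the filter of 1 FPKM, at 0.977, 1.03 and 1.06 in the PCL libraries and 2.34, 2.63 and 1.87 in those from ISB-P. With the block 5 were higher and 3 lower, 44.4% of the list beside 24.4% of all tested genes. The count of 2 was 0 without PCL replicate 1, 2 or 3 or ISB-P replicate 1 or 2, and 1 without ISB-P replicate 3, with a common total, with upper quartile scaling, with a filter at 5 FPKM or with no trend. Egr2 did not reach 5 FPKM in any film library and was not tested with that filter. The blocked count was 6 to 12 in the other blocked fits, 33.3% to 66.7% of the list beside 18.7% to 33.1% of all tested genes. The median of the 18 was 0.10. Spry2, a feedback inhibitor of growth factor signalling, was higher with the block (0.43, limma adjusted p = 0.00301). Myc was at 39.3 FPKM on TCP, 82.2, 74.7 and 76.7 in the PCL libraries and 99.7, 87.4 and 75.7 in those from ISB-P. The films overlapped (log2 difference 0.16, limma adjusted p = 0.836, and 0.167 with the block), and TCP lay below all 6 film libraries. Others of the list were higher there. Against PCL 3 of the 18 (Fos, Fosb and Egr2) were over 2-fold higher on TCP, beside 3.04% of all tested genes. Another 3 (Ier3, Dusp5 and Spry4) were over 2-fold lower, beside 5.56%. Fos was at 37.1 FPKM on TCP beside 7.43 to 9.78 on PCL.

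Most genes downstream of E2F were far lower on TCP than on either film. Of 24 E2F targets of S phase 0 were called between ISB-P and PCL by limma, and none had an unadjusted p under 0.05. With the block 1, the replication licensing factor Cdt1, was higher on ISB-P (log2 difference 0.52, limma adjusted p = 0.00398), with a median of 0.09 over the 24. That was 4.17% of the list beside 24.4% of all tested genes. The blocked count was 5 without the libraries of number 3, 20.8% beside 33.1% of all tested genes. It was 3 with a common total, 12.5% beside 29.9%, and 2 with upper quartile scaling, 8.33% beside 24.5%. Cdc45 and Gins2, of the replicative helicase, had log2 differences of 0.19 and 0.26. On TCP 21 of the 24 were over 2-fold below PCL, beside 5.56% of all tested genes, and the same number below ISB-P, beside 8.98%. The median log2 difference to PCL was -1.99, beside -0.07 over all tested genes. Rrm2, the small subunit of ribonucleotide reductase and the most abundant of the list, was at 13.0 FPKM on TCP, 111, 138 and 149 in the PCL libraries and 112, 131 and 175 in those from ISB-P. Summed over the 24 genes the level was 207 FPKM on TCP, with 893.1 ± 94.9 for PCL and 959.7 ± 147 for ISB-P (SD, n = 3). The 13 mitosis genes tested were all over 2-fold lower on TCP than on either film, beside the same 5.56% and 8.98% of all tested genes. Their median log2 difference to PCL was -2.75. Between the films 0 of 13 were called by limma without the block, 1 had an unadjusted p under 0.05, and with the block Plk1 (-0.46, limma adjusted p = 0.00412) and Cdc20 (-0.38, 0.00546) were lower on ISB-P. These were 15.4% of the 13 beside 24.4% of all tested genes. The blocked count was 4 without the libraries of number 3, 30.8% beside 33.1%. Aurka had a log2 difference of -0.16. The low levels of Cdk2, Ccne1, Ccne2 and Cdkn2c on TCP stood beside low levels of the S phase and mitosis genes in the same library.

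**Figure D5:**
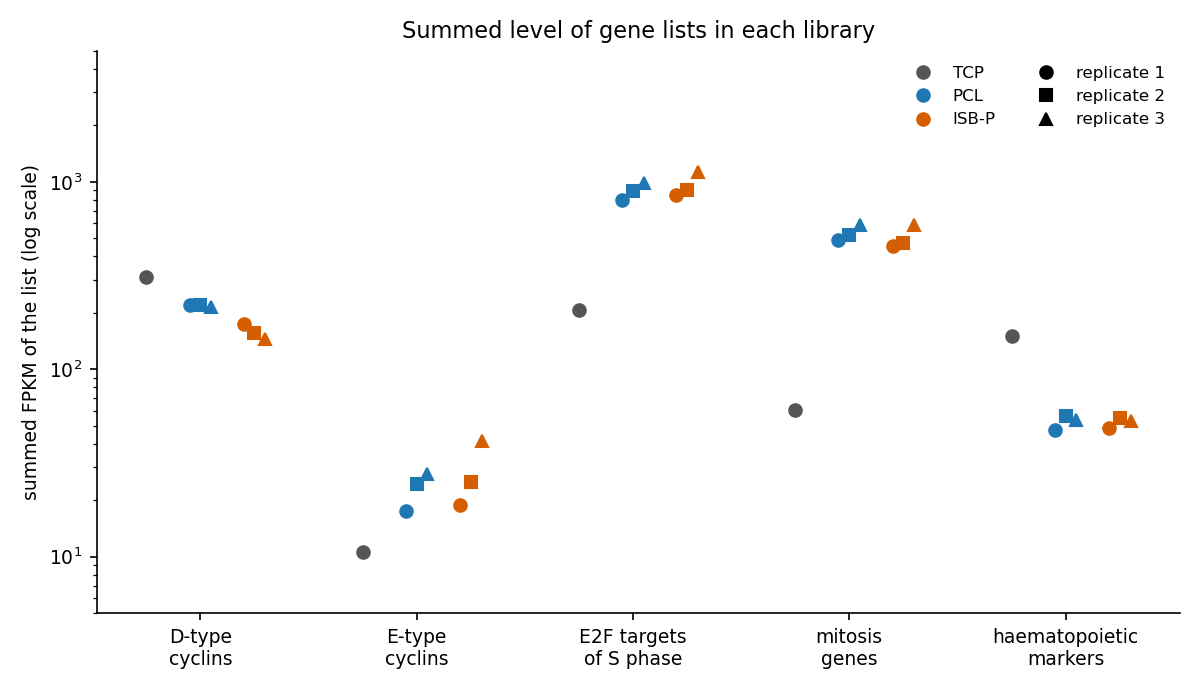
Summed FPKM (log scale) of the D-type cyclins, E-type cyclins, E2F targets of S phase, mitosis genes and haematopoietic markers in each library. TCP is highest for the D-type cyclins (312) and haematopoietic markers (150.8) and lowest for the E-type cyclins (10.6), E2F targets (207) and mitosis genes (60.8).

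Markers of haematopoietic cells were higher on TCP. The summed haematopoietic markers were at 150.8 FPKM there. Of the 6 tested, 5 were over 2-fold above each film, beside 3.04% of all tested genes against PCL and 4.28% against ISB-P. Lyz2, the lysozyme gene of macrophages, was at 72.9 FPKM on TCP. It was at 16.6, 20.7 and 21.5 in the PCL libraries and 20.7, 23.9 and 27.2 in those from ISB-P. The part of these markers in the differences between TCP and the films was not tested. Between the films the sums were 52.3 and 52.0 FPKM, 0 of 6 were called by limma without the block, 1 had an unadjusted p under 0.05, and with the block Lyz2 was higher (0.27, limma adjusted p = 0.0299) and Cd14 lower (-0.42, 0.00663) on ISB-P. These 2 of 6 stood beside 24.4% of all tested genes, and the blocked count was 1 without the libraries of number 1 or of number 2. Csf1r had a log2 difference of 0.12. Of the 11 mesenchymal markers tested 0 were called by limma without the block (1 had an unadjusted p under 0.05) and 2 with it, both lower on ISB-P: Pdgfrb (-0.76, limma adjusted p = 1.41e-04) and Pdgfra (-0.29, 0.0200), receptors for platelet-derived growth factor. These were 18.2% of the 11 beside 24.4% of all tested genes, and the blocked count was 1 without the libraries of number 1 and 3 without those of number 3 or with a common total. Cd44 had a log2 difference of 0.23. Pdgfrb was at 177 FPKM on TCP, 177, 167 and 154 in the PCL libraries and 110, 97.4 and 86.6 in those from ISB-P, and like Ccnd1 it did not overlap between the films.

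The genes most like the leading cyclin, kinase and inhibitor were found by Pearson's r of log2(FPKM + 1) over the 7 libraries, a description in which the TCP library carries much of the spread. For Ccnd1 they were Srpx2 (0.992), Mtfr1l (0.989) and Apbb3 (0.987). Srpx2 was at 165 FPKM on TCP, 118, 124 and 121 in the PCL libraries and 94.1, 95.1 and 95.0 in those from ISB-P, the same order of groups as Ccnd1. For Cdk4 they were Naa10 (0.981), Asic3 (0.975) and Ptgfrn (0.973). For Cdkn2c they were Gstp1 (0.996), Plk1 (0.994) and Cdc25b (0.993), of which Plk1 was at 5.66 FPKM on TCP, 50.7, 48.3 and 48.7 in the PCL libraries and 38.5, 37.0 and 31.6 in those from ISB-P, with the same order of groups as Cdkn2c.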

How the data were processed

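RNA of rMSCs was measured on TCP (1 library), PCL (3) and ISB-P (3). For every library the authors deposited a table of values by gene symbol, which were read as FPKM because the values are not whole numbers and their sums differ between libraries. The submitters' processing notes name bcl2fastq 2.20.0.422, cutadapt 1.18, TopHat2 2.0.13, Cuffdiff 2.2.1 and the rn5 build, and the methods name ExDEGA. The annotation is not given in the sources used here. Read depth is unknown, so no counting interval or detection floor is given and precision rests on the 3 replicates.

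A gene was tested if 3 or more of the 6 film libraries reached 1 FPKM, which left 9467 genes for limma 3.58.1 in R 4.3.3 (lmFit, eBayes with trend) on log2(FPKM + 1). Tests were two-sided and carried a Benjamini-Hochberg adjustment across all 9467. Adding 1 makes fold changes of low genes smaller than they are. The replicate numbers of the labels were read as pairs because deviations from the film means correlated within each number (r = 0.887, 0.431 and 0.867; mean of different numbers -0.36). Deviations within a film sum to 0, so the mean of different numbers largely follows from the same-number values and is no separate evidence. The pairing was read from the same values that the blocked fits then used. No label says what a number marks. The column headers of PCL libraries 2 and 3 carry the numbers 1 and 2, and the PCL and ISB-P libraries that both carry 2 in their headers had r = -0.26. Every blocked call rests on the numbers of the titles. Ratios were compared by exact permutation tests (scipy 1.17.1), with adjustment over the 5. Comparisons with TCP had no test. The alternatives tried were 3 other scalings, other filters, a pseudocount of 0.1, the replicate block, and each library or number left out.

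All members were named, and from each list the 3 tested genes with the lowest unadjusted p, with Cdkn1a, Rb1 and Myc always, and the 3 genes most like the most abundant cyclin, kinase and inhibitor by Pearson's r. Fbxo31 and Cdkn2b were named under both of their lists. Members, lists and rules were chosen with earlier results of these data known. Genes given for their level alone (Col1a1, Thy1, Rrm2, Srpx2, Col1a2, Cd34, Emcn and Cldn5), and Btg2, Fos, Fosb, Ier3, Dusp5 and Spry4, were named after their values were seen. Of the 40 further G1 regulators, E2f2, E2f5, E2f8, Tfdp1, Cdkn2d, Cdk7, Fbxw7, Lin9 and Lin52 were not analysed here. The p53 targets listed were used for the closing observations. RefSeq promoters are of GRCr8, not the build of the files, and no coordinate was taken from one to the other.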

Additional observations from a re-analysis of the deposited data

How the results depend on the processing

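Of the 10 members, 9 kept the direction of their difference between the films under all 21 alternatives, but for the smallest differences the sign rests on values near 0: Ccnd2 ranged from -0.17 to -0.00135, Cdk4 from -0.22 to -0.0579 and Cdk6 from 0.0223 to 0.19. Cdk2 (0.05) turned to -0.0619 after scaling to a common total, with or without the replicate block (-0.0619 in both), and ranged from -0.0535 without PCL replicate 1 to 0.14 when single libraries were left out. The number of members called, 0 without the replicate block, was 6 with the block, 6 with the block and upper quartile scaling, 6 with the block and quantile normalization, and 7 with the block and a common total. It was 0 without any single library and 4 to 6 in the blocked fit without 1 number, where Ccnd1, Ccnd3, Ccne2 and Cdkn1b were called in all 3 fits and Ccne1 and Cdkn2c in 1. Such blocked fits leave 1 residual degree of freedom per gene. The other G1 regulators called went from 0 to 11 with the block, 36.7% of the list beside 24.4% of all tested genes. With the block they were 10 after upper quartile scaling and 10 after quantile normalization, 33.3% beside 24.5% and 24.4%. With the block and a common total they were 6, 20.0% beside 29.9%. Without any single library they were 0. In the blocked fit without number 1, 2 or 3 they were 4, 8 and 14. These were 13.3%, 26.7% and 46.7% of the list beside 18.7%, 21.2% and 33.1%.

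Of all tested genes 163 were called, 85 with a filter at 5 FPKM, 2307 with the block, 2321 and 2307 with the block and upper quartile or quantile normalization, and 2827 with the block and a common total. The count was 35, 20 and 42 without PCL replicate 1, 2 or 3 and 80, 27 and 113 without ISB-P replicate 1, 2 or 3, and 1773, 2004 and 3137 in the blocked fit without number 1, 2 or 3. In the blocked fit ISB-P was higher for 1228 genes and lower for 1079, against 714 and 2113 once a common total was added. Among the ratios, when single libraries were left out, the film difference of the Ccnd1 share ranged from -3.45 to 2.81 percentage points, that of the Ccnd3 share from -3.75 to 2.56, and that of Cdkn1b per D-type cyclin from -0.0124 to 0.00321. The cause of these changes was not tested. Unknown depth limits what can be said of the precision of a single library.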

Other observations

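The 13 p53 targets, which the members leave out, had a median log2 difference of 0.12 between ISB-P and PCL, beside 0.02 over all tested genes. Without the replicate block limma called 0 of the 13 with the values as deposited, beside 1.72% of all tested genes. It called 1 after each of the 3 other scalings, 7.69% of the list beside 1.25% to 1.48% of all tested genes. As deposited, 2 had an unadjusted p under 0.05, beside 12.1%. With the block 4 were higher on ISB-P (Gadd45a, Plk2, Bbc3 and Btg2) and 0 lower, 30.8% of the list beside 24.4% of all tested genes. The count was 3 to 7 in the other blocked fits, 23.1% to 53.8% of the list beside 18.7% to 33.1% of all tested genes. Gadd45a, a stress-induced inhibitor of growth, was at 15.4 FPKM on TCP, 26.2, 25.9 and 34.9 on PCL and 50.4, 54.4 and 64.3 on ISB-P. The films did not overlap, with a log2 difference of 0.94 (limma adjusted p = 0.0523, and 7.48e-05 with the block). The log2 difference was 0.73 for Plk2 and 0.36 for Bbc3, with limma adjusted p of 5.24e-04 and 0.0203 in the blocked fit. The TCP library lay above all 6 film libraries for 8 of the 13, beside 25.4% of all tested genes.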
